A study of Mus musculus with 6 samples.

Results

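The genes described here belong to 4 families of germline genes that mammals carry in many copies: Xlr, Magea, Rhox and Pram, the last holding the PRAME-like genes. Members were the rows of the count tables whose gene symbol begins with 1 of those 4 prefixes, which gave 63 of 24984 symbols (10 Xlr, 8 Magea, 31 Rhox and 14 Pram). The cells were E14TG2a, a line of mouse embryonic stem cells, kept in the serum-free N2B27 medium, and RNA-seq counts were available for 3 groups of 2 libraries. KO cells carried a CRISPR/Cas9 disruption of Mettl3, D395A cells carried the METTL3 D395A substitution (a change within its catalytic motif) put in by CRISPR/Cas9 targeted integration, and WT cells were the unmodified parent line. METTL3 is the enzyme that places m6A (N6-methyladenosine) on RNA, and the submitters' stated subject is how m6A and circular RNA relate. The labels name no separate clones, so the Mettl3 genotype and the history of each edited line cannot be told apart.

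Members of these families are best known from the male and female germline. Xlr genes (X-linked lymphocyte regulated) encode nuclear proteins related to SYCP3, a component of the axis of meiotic chromosomes. Magea genes encode cancer-testis antigens that bind E3 ubiquitin ligases. Rhox genes form a cluster of homeobox genes on the X chromosome that are expressed in reproductive tissues. PRAME-like proteins are built of leucine-rich repeats; in mice PRAMEL7 promotes the degradation of UHRF1, the protein that guides maintenance DNA methylation, and PRAMEF12 is needed to keep spermatogonial stem cells. In most somatic cells DNA methylation keeps many germline genes silent, and in embryonic stem cells a Polycomb complex with MGA, MAX, E2F6 and PCGF6 also represses a set of them.

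Stretches of 120 bases directly upstream of the first start site that the table of RefSeq promoters lists are shown for 9 members, because the results below turn on these genes and because CpG is the site of DNA methylation. They are on GRCm38.p6, written 5′ to 3′ on the strand of the gene, with each CpG in capitals. The stretches lie at chrX:73097096-73097215 (minus strand) for Xlr3a, chrX:73082508-73082627 (minus) for Xlr4a, chrX:73117703-73117822 (minus) for Xlr5a, chrX:72221897-72222016 (plus) for Magea4, chrX:37244872-37244991 (plus) for Rhox2a, chrX:37557292-37557411 (plus) for Rhox4e, chr2:87506445-87506564 (plus) for Pramel6, chr2:87492419-87492538 (minus) for Pramel7 and chr4:144408465-144408584 (minus) for Pramef12. For Xlr5a, Magea4, Xlr4a and Pramef12 that start lies inside the gene as annotated, by few bases in Xlr4a and Pramef12.
Xlr3a: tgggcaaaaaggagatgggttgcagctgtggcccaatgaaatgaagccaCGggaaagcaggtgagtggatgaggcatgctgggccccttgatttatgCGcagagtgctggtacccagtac
Xlr4a: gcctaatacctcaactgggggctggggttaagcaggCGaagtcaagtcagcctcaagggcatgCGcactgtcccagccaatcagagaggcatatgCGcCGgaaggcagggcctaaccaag
Xlr5a: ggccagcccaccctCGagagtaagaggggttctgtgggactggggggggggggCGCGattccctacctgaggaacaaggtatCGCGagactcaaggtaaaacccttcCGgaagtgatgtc
Magea4: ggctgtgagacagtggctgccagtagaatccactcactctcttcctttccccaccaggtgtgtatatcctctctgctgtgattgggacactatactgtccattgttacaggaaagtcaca
Rhox2a: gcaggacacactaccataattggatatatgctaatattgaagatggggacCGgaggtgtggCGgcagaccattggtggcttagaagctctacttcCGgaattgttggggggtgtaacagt
Rhox4e: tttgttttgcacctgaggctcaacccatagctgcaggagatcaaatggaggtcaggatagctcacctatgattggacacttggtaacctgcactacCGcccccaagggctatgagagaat
Pramel6: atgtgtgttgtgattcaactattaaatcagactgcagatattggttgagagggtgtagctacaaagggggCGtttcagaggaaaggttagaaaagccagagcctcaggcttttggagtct
Pramel7: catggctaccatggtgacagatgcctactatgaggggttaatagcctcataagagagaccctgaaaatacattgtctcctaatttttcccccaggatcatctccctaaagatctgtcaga
Pramef12: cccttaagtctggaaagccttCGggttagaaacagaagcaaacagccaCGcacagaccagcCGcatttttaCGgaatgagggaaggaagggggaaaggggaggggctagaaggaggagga

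Over the full windows of 250 bases before to 50 bases after the start, which 37 of the 38 tested members had in that table, the median number of CpG was 7 in Xlr (range 1 to 16), 2 in Magea (0 to 10), 8 in Rhox (0 to 12) and 3 in Pram (1 to 9). The median of all 27025 gene windows of the same length was 7, and 31.9% of them held 3 CpG or fewer. Among 30 pairs of copies within the Xlr3, Xlr4, Xlr5, Rhox2 and Rhox4 subfamilies, the shared part of the windows ranged widely: 46.7% of aligned bases in Xlr5a and Xlr5c was the lowest, the median was 85%, and 6 pairs were above 90%. Rhox2a and Rhox2c shared 99.7% of aligned bases, Xlr4a and Xlr4b 93.5%, and Rhox4e and Rhox4g 91.9%. Pramel6 and Pramel7, which lie next to each other on chromosome 2, shared 48.2%. Pairs among Xlr3a, Xlr4a and Xlr5a, which are of different subfamilies, shared 49.71% to 52.15%. The values of 46.7% and 48.2% are thus no higher than between subfamilies. Motifs were sought on both strands as exact letters. The E-box CACGTG stood in 2 Rhox windows and in no window of the other families, against 7.24% of all windows. The E2F letters GCGGGAA stood in 1 Xlr window (4.66% of all windows). The SP letters GGGCGG stood in 4 Rhox windows (35.9% of all). The STAT-like letters TTCCNNNAA stood in 5 of the 7 Magea windows, 2 Xlr, 1 Rhox and 2 Pram windows, and in neither Pramel6 nor Pramel7, against 16.6% of all windows. Other forms of STAT site were not sought, so these letters do not tell which windows hold or lack a STAT site.

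Gene counts totalled 35851584 and 35613626 in KO, 22859491 and 35784699 in D395A, and 40476809 and 36136543 in WT. Levels below are CPM, counts scaled to TMM-adjusted library totals, as the mean ± SD over 2 libraries, and 1 count was worth between 0.0246 and 0.0423 CPM in single libraries. Mettl3 itself had 7.85 and 6.18 CPM in KO, 21.0 and 23.4 CPM in D395A, and 28.5 and 31.5 CPM in WT, a log2 fold change of -2.09 ± 0.11 in KO and -0.43 ± 0.10 in D395A. The labelled cell type had its markers, since 10 embryonic stem cell markers summed to 5185 and 5191 CPM in KO, 2309 and 2465 CPM in D395A, and 4488 and 4534 CPM in WT. Of these, 4 rose and 3 fell in KO, and 1 rose and 8 fell in D395A. The labels do not say if the libraries of 1 group are separate cultures, so a p-value reflects only how far these libraries spread. That spread is pooled over the 3 groups and drawn toward that of other genes (11.6 prior beside 3 residual degrees of freedom). In bulk RNA, fewer cells with a transcript and less transcript per cell cannot be told apart.

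Most members with enough counts were lower in KO and in D395A than in WT, and both comparisons use the same WT libraries. Of the 63 members, 13 had 0 counts in all 6 libraries, 12 had 1 to 9 counts, and 38 had at least 10 and were tested (10 of 10 Xlr, 7 of 8 Magea, 14 of 31 Rhox and 7 of 14 Pram). In KO, 31 of the 38 fell against WT, 1 rose (Pramef12) and 6 were not called at an adjusted p of 0.05. Over all 17546 genes tested, 29.2% fell and 30.4% rose in that comparison. In D395A, 29 fell, 1 rose (again Pramef12) and 8 were not called, where 30.7% of all genes tested fell and 33.5% rose. The median log2 fold change of the 38 was -3.61 in KO and -4.94 in D395A, or -2.99 and -3.48 with members at 3 or fewer counts in a group set to their bound or ratio. Over all genes the medians were 0.02 and 0.03. The libraries of KO lay below both WT libraries for 35 members and those of D395A for 34, against 39.7% and 40% of all genes. These counts describe members that passed a minimum count. For 14 of the 38 (3 Xlr, 3 Magea and 8 Rhox) the KO and D395A libraries together held fewer than 10 counts. These passed through their WT counts, which favoured a lower call in KO and D395A, though not all of them were called.

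**Figure D1:**
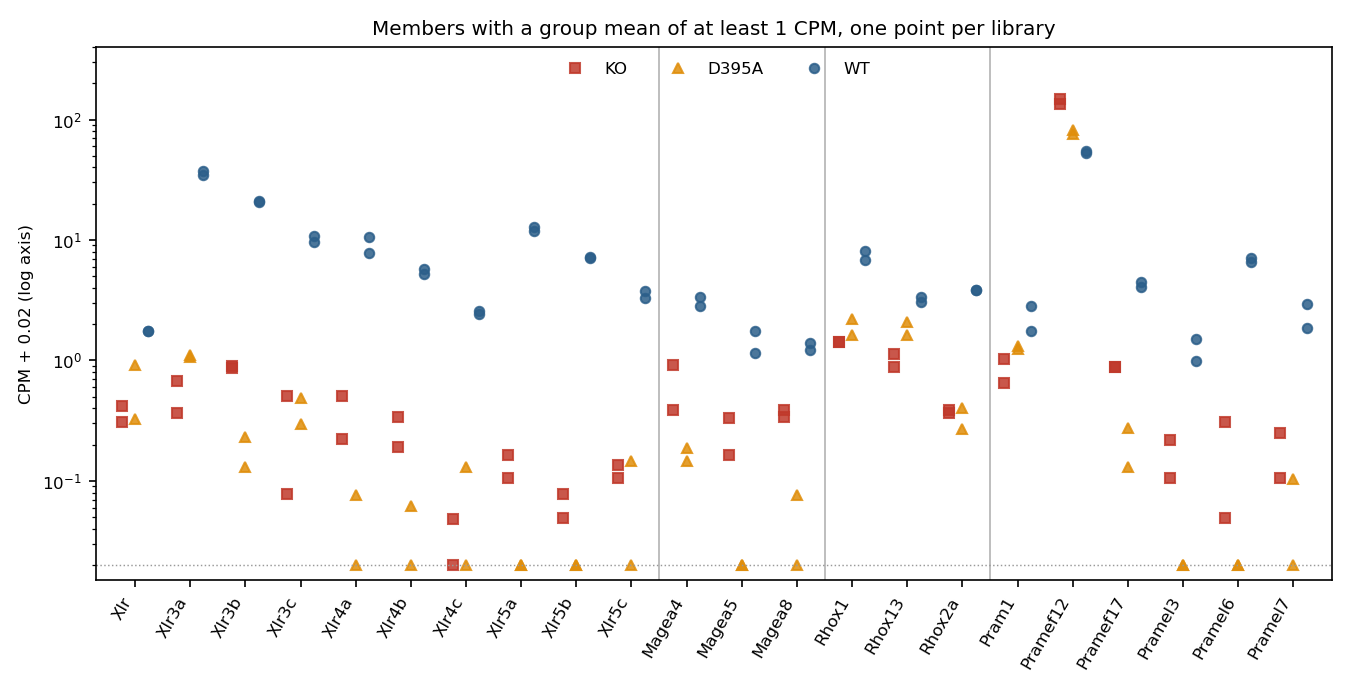
Level of each member with a group mean of at least 1 CPM, in CPM + 0.02 on a log axis, with members along the horizontal axis by family. Each point is 1 library (squares KO, triangles D395A, circles WT), and the dotted line marks 0 counts. The WT circles lie above the KO and D395A points for every member shown except Pramef12, where they lie lowest.

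All 10 Xlr members fell in KO and in D395A. Their summed level was 2.91 and 2.77 CPM in KO, with 2.79 and 1.95 CPM in D395A, against 109.0 and 108.5 CPM in WT. The means were 2.84 ± 0.098 CPM in KO and 2.37 ± 0.598 CPM in D395A, against 108.8 ± 0.339 CPM in WT, so the sum was 38.3-fold lower in KO and 45.9-fold lower in D395A. The Xlr3, Xlr4 and Xlr5 copies, 9 in all, lie on the X chromosome between 73074343 and 73293863 (GRCm38.p6) in 3 sets, and Xlr itself lies apart, from 53777118 to 53797716.

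Xlr3a, the Xlr member with the highest WT level per kilobase of exon, had 0.656 and 0.346 CPM in KO, 1.06 and 1.08 CPM in D395A, and 37.1 and 34.6 CPM in WT. Its log2 fold change was -6.15 ± 0.17 in KO (adjusted p = 7.2e-13) and -5.06 ± 0.16 in D395A (adjusted p = 1.1e-12). Levels per kilobase, here and below, use the full exon length and are not corrected for sequence shared with other genes. Xlr3b, 1 of the Xlr genes that are imprinted in mouse brain, had 0.884 and 0.837 CPM in KO, 0.211 and 0.111 CPM in D395A, and 21.1 and 20.8 CPM in WT. It had log2 fold changes of -4.6 ± 0.16 in KO and -7.08 ± 0.22 in D395A. D395A stood above KO for Xlr3a (1.09 ± 0.29, adjusted p = 0.0063) and below KO for Xlr3b (-2.48 ± 0.36, adjusted p = 4.2e-05). The higher level of Xlr3a in D395A than in KO lost its call without KO replicate 2 (0.71, adjusted p = 0.093) and without D395A replicate 2 (1.07, adjusted p = 0.051). Xlr3c had 0.0571 and 0.491 CPM in KO, 0.465 and 0.278 CPM in D395A, and 10.8 and 9.53 CPM in WT. It fell in both (-5.20 ± 0.39 in KO and -4.82 ± 0.39 in D395A), and the mutant lines overlapped. The 3 Xlr3 copies summed to 1.64 ± 0.0543 CPM in KO, with 1.60 ± 0.185 CPM in D395A, against 66.9 ± 2.87 CPM in WT.

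The Xlr4 copies were near the limit of counting in D395A. Xlr4a had 0.485 and 0.202 CPM in KO, 0 and 0.0556 CPM in D395A, and 7.83 and 10.5 CPM in WT. It fell by 4.72 ± 0.33 on the log2 scale in KO and was 271-fold lower in D395A (95% interval of the ratio 74.7 to 2241). D395A was also below KO, by 10.3-fold (2.55 to 89.6, adjusted p = 0.0040), though not with limma-voom (adjusted p = 0.062). Xlr4b, imprinted in mouse brain like Xlr3b, had 0.171 and 0.318 CPM in KO, 0.0423 and 0 CPM in D395A, and 5.77 and 5.15 CPM in WT. It fell by 4.46 ± 0.39 on the log2 scale in KO and was 327-fold lower in D395A (58.3 to 12932). Xlr4c, the third of the copies imprinted in brain, had 0.0285 and 0 CPM in KO, 0 and 0.111 CPM in D395A, and 2.53 and 2.42 CPM in WT, and was 173-fold lower in KO (30.6 to 6860). In D395A it fell by 5.17 ± 0.72 on the log2 scale. Summed over the set, Xlr4 stood at 0.602 ± 0.117 CPM in KO and 0.105 ± 0.088 CPM in D395A, against 17.1 ± 1.36 CPM in WT.

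The Xlr5 copies were near that limit in both mutant lines. Xlr5a had 0.0856 and 0.144 CPM in KO, 0 counts in both D395A libraries, and 11.9 and 12.9 CPM in WT. It fell by 6.71 ± 0.28 on the log2 scale in KO (adjusted p = 8.7e-11) and was at least 246-fold lower in D395A. Xlr5b had 0.0571 and 0.0289 CPM in KO, 0 counts in D395A, and 7.0 and 7.21 CPM in WT. It was 165-fold lower in KO (56.1 to 802) and at least 141-fold lower in D395A. Xlr5c had 0.0856 and 0.115 CPM in KO, 0.127 and 0 CPM in D395A, and 3.27 and 3.72 CPM in WT, with a log2 fold change of -5.07 ± 0.60 in KO and a level 69.1-fold lower in D395A (23.4 to 337). These copies share most of their sequence. Only 18.7% of the 100-base windows of Xlr5b, 30.9% of Xlr5a and 33.3% of Xlr5c occur in no other gene, so their split between copies is uncertain, while the sum of the 3 (0.258 ± 0.0428 CPM in KO and 0.0634 ± 0.0897 CPM in D395A, against 23.0 ± 1.16 CPM in WT) does not depend on the split among them. The GENCODE models of Xlr5a and Xlr5c also overlap on the same strand.

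Xlr, the 1 member by symbol that lies far from that cluster, had the smallest log2 fold changes of the 10 Xlr members. It had 0.399 and 0.289 CPM in KO, 0.888 and 0.306 CPM in D395A, and 1.72 and 1.73 CPM in WT, with log2 fold changes of -2.31 ± 0.54 in KO (adjusted p = 0.0017) and -1.58 ± 0.52 in D395A (adjusted p = 0.016). The fall in D395A was not called without D395A replicate 2 (-0.95, adjusted p = 0.13), without WT replicate 1 (adjusted p = 0.085) or without WT replicate 2 (adjusted p = 0.084).

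**Figure D2:**
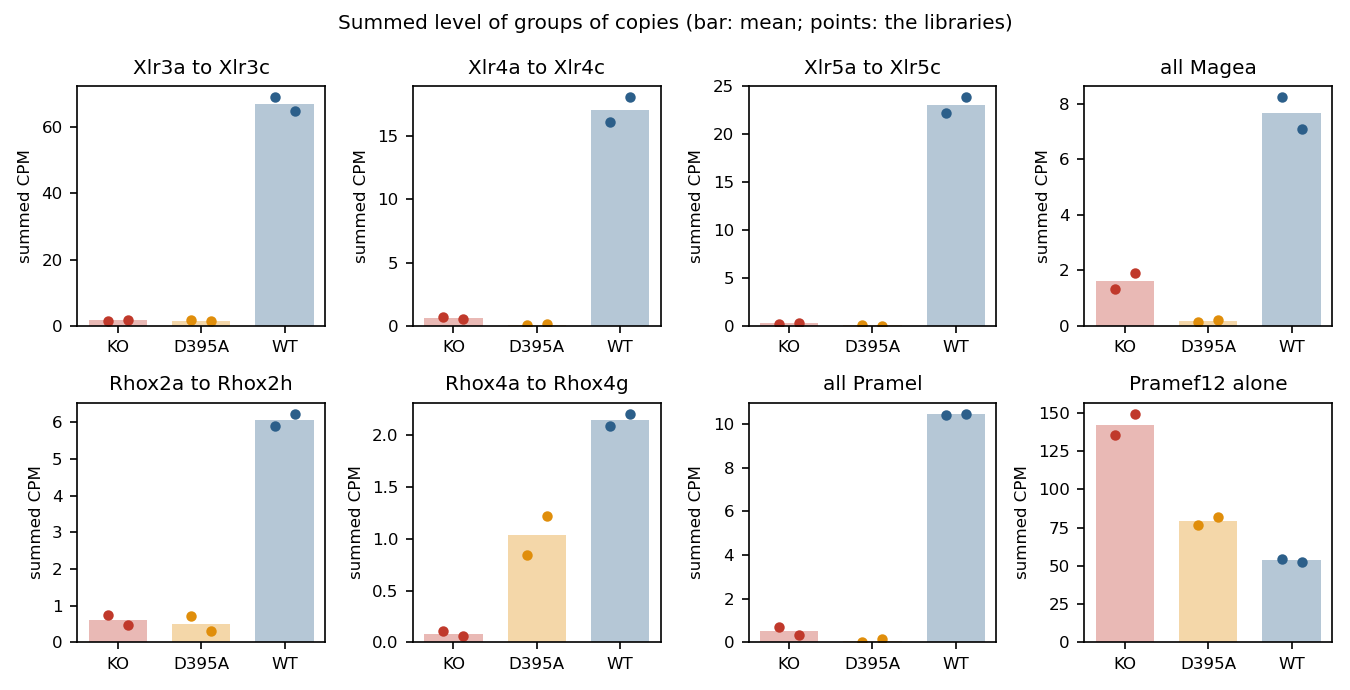
Summed CPM of sets of copies in KO, D395A and WT, 1 panel per set on a linear axis that starts at 0. Bars are group means and points are the libraries. KO and D395A lie close together for Xlr3 and Rhox2, D395A lies below KO for Magea (0.175 and 1.62 CPM) and above KO for Rhox4 (1.03 and 0.0859 CPM), and Pramef12 is highest in KO.

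Magea levels were lower in KO and near the counting limit in D395A. Its 8 members summed to 1.34 and 1.91 CPM in KO, with 0.127 and 0.222 CPM in D395A, against 8.23 and 7.10 CPM in WT. The sum was 4.72-fold lower in KO and 43.9-fold lower in D395A. Of the 7 tested members, 4 fell in KO (Magea4, Magea5, Magea8 and Magea10) and Magea2, Magea3 and Magea6 were not called. All 7 fell in D395A. Magea1 had no count in any library.

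Magea4 had the highest WT level of the family per kilobase of exon, with 0.371 and 0.895 CPM in KO, 0.127 and 0.167 CPM in D395A, and 3.34 and 2.84 CPM in WT. It had log2 fold changes of -2.28 ± 0.43 in KO (adjusted p = 2.8e-04) and -4.33 ± 0.52 in D395A (adjusted p = 3.3e-06). The difference between D395A and KO was -2.05 ± 0.56 (adjusted p = 0.0081). It lost its call with limma-voom (adjusted p = 0.054) and without KO replicate 2 (-1.28). All 100-base windows of Magea4 are found in no other gene. Magea10, its neighbour at 72 Mb, had 0 counts in KO and in D395A and 0.491 and 0.358 CPM in WT, at least 9.95-fold lower in KO and at least 8.51-fold lower in D395A.

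The other tested Magea genes lie together between 154923895 and 155063151 on the X chromosome. Their sum, with no Magea4 in it, was 0.990 ± 0.0286 CPM in KO and 0.0278 ± 0.0393 CPM in D395A, against 4.15 ± 0.344 CPM in WT. Magea5 had 0.314 and 0.144 CPM in KO, 0 counts in D395A, and 1.74 and 1.13 CPM in WT, a log2 fold change of -2.63 ± 0.63 in KO and a level at least 28.9-fold lower in D395A. Magea8 had 0.371 and 0.318 CPM in KO, 0 and 0.0556 CPM in D395A, and 1.38 and 1.21 CPM in WT. It fell by 1.90 ± 0.60 in KO on the log2 scale and was 38.7-fold lower in D395A (10.4 to 324). The calls in KO rested on both WT libraries for Magea8 (adjusted p = 0.087 without replicate 1 and 0.055 without replicate 2) and on WT replicate 1 for Magea5 (adjusted p = 0.051 without it). Magea2, Magea3 and Magea6 had between 0.0571 and 0.26 CPM in KO, 0 counts in D395A and between 0.303 and 0.688 CPM in WT. Set against KO, D395A was lower for 6 of the 7 tested Magea members, Magea10 having 0 counts in both lines. That number was 3 without KO replicate 2 and without either D395A library. In this comparison 21.5% of all genes tested were lower in D395A and 23.3% were higher.

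Rhox levels differed by subfamily. The 31 members summed to 3.68 and 2.89 CPM in KO, with 6.13 and 5.50 CPM in D395A, against 18.9 and 19.8 CPM in WT, 5.89-fold lower in KO and 3.33-fold lower in D395A. Of 14 tested members, 12 fell in KO and 8 in D395A, and Rhox10 and Rhox2c were called in neither. Over all genes tested, 29.2% fell in KO and 30.7% in D395A. With DESeq2 in place of edgeR 7 and 4 of the 14 were called lower, and 4 of 14 is near that share in D395A. Leaving out 1 library of D395A or WT also left fewer than 8 called lower in D395A. Many Rhox members held few counts, and 8 of the 14 tested passed the minimum count only through their WT counts, which favoured a lower call. Of the 17 members not tested, 9 had 0 counts throughout, and Rhox5, Rhox6, Rhox7a, Rhox8 and Rhox9 together had 1 count in the 6 libraries.

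Rhox1, at the end of the cluster, had the highest WT level of the family per kilobase of exon. It had 1.4 and 1.41 CPM in KO, 2.20 and 1.61 CPM in D395A, and 6.83 and 8.01 CPM in WT. Its log2 fold change was -2.40 ± 0.21 in KO (adjusted p = 1.3e-07) and -1.98 ± 0.21 in D395A (adjusted p = 8.1e-07). Rhox13, at the opposite end, had 1.11 and 0.866 CPM in KO, 1.61 and 2.06 CPM in D395A, and 3.36 and 3.06 CPM in WT. It had log2 fold changes of -1.69 ± 0.29 in KO and -0.80 ± 0.28 in D395A. The fall of Rhox13 in D395A (adjusted p = 0.022) was not called without D395A replicate 1 (adjusted p = 0.0998), without either WT library (0.147 and 0.080) or with DESeq2 (0.051). D395A was above KO by 0.90 ± 0.30 (adjusted p = 0.026). That call was lost with DESeq2 (adjusted p = 0.065) and in a fit of the 2 lines alone (adjusted p = 0.098). It was also lost without KO replicate 2 (0.73) and without D395A replicate 2 (0.70).

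The Rhox2 copies were low in both lines. Rhox2a had 0.371 and 0.346 CPM in KO, 0.381 and 0.250 CPM in D395A, and 3.86 and 3.85 CPM in WT. It had log2 fold changes of -3.41 ± 0.37 in KO and -3.64 ± 0.39 in D395A, and the mutant lines overlapped (D395A against KO -0.22 ± 0.45, adjusted p = 0.72). The whole set summed to 0.602 ± 0.198 CPM in KO, with 0.512 ± 0.292 CPM in D395A, against 6.06 ± 0.232 CPM in WT. Rhox2g had 0 counts in KO and in D395A and 0.418 and 0.22 CPM in WT, at least 7.54-fold lower in KO and at least 6.45-fold lower in D395A, a call lost without D395A replicate 2 (adjusted p = 0.055). Rhox2h also had 0 counts in both lines, with 0.202 ± 0.182 CPM in WT.

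The summed level of the Rhox4 copies was higher in D395A than in KO. It was 0.114 and 0.0577 CPM in KO, with 0.846 and 1.22 CPM in D395A, against 2.09 and 2.20 CPM in WT, so the 3 groups did not overlap. The sum was 25.0-fold lower in KO and 2.07-fold lower in D395A. Rhox4e had 0.0285 and 0.0577 CPM in KO, 0.465 and 0.806 CPM in D395A, and 0.663 and 0.633 CPM in WT. In KO it was 15.1-fold lower than in WT (4.87 to 75.6, adjusted p = 8.9e-04), while the D395A and WT libraries overlapped (-0.01 ± 0.61, adjusted p = 0.99). D395A exceeded KO 15.6-fold (4.96 to 78.7, adjusted p = 0.0015). Rhox4a, Rhox4c, Rhox4d and Rhox4g passed the minimum count only through their WT counts, which favoured a lower call. All 5 tested Rhox4 copies fell in KO, and Rhox4a was the 1 called lower in D395A. Each of the 5 had both D395A libraries above both KO libraries, as did 37.2% of all genes tested, but Rhox4e alone was called between the lines. Rhox4a had 0 counts in KO, 0.127 and 0.0556 CPM in D395A, and 0.491 and 0.523 CPM in WT, at least 11.8-fold lower in KO and with a log2 fold change of -2.5 ± 0.95 in D395A. The call of Rhox4a in D395A was lost in each of the 4 fits that left out 1 library of D395A or WT (adjusted p up to 0.17). A share of 21.8% of the windows of Rhox4e is found in no other gene, so the sum over copies is firmer than any copy. Rhox10, which acts in spermatogonial stem cells of the mouse, had 0.314 and 0.0866 CPM in KO, 0.719 and 0.25 CPM in D395A, and 0.639 and 0.248 CPM in WT, and all groups overlapped.

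**Figure D3:**
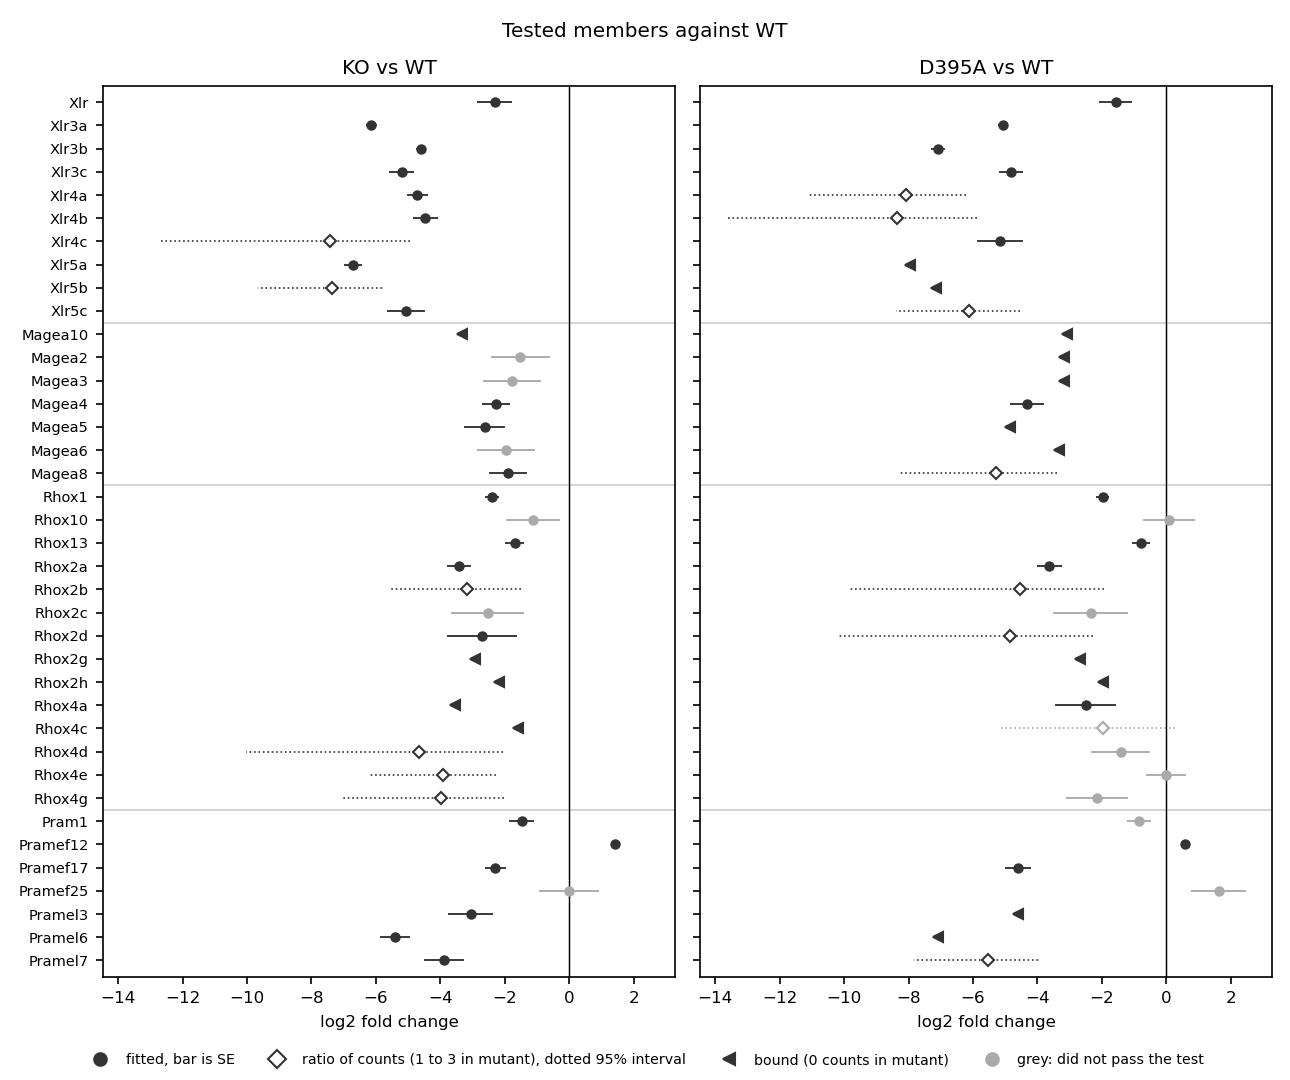
Log2 fold change of each tested member in KO against WT (left) and in D395A against WT (right). Filled points are fitted values with bars of 1 SE, open diamonds are ratios of counts with dotted 95% intervals where the mutant held 1 to 3 counts, triangles are bounds where it held 0, and grey marks did not pass the test. Every Xlr mark lies below 0 in both panels, and Pramef12 lies above 0 in both.

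The PRAME-like genes held the 1 member that rose, Pramef12, and 4 that fell in both lines. Pramef12 had 135 and 149 CPM in KO, 76.5 and 81.8 CPM in D395A, and 54.4 and 52.7 CPM in WT. Its log2 fold change was 1.41 ± 0.07 in KO (adjusted p = 2.8e-10) and 0.56 ± 0.07 in D395A (adjusted p = 6.1e-06), and the 3 groups did not overlap. D395A was below KO, with a difference of -0.84 ± 0.07 (adjusted p = 1.3e-07). Pramef12 made up 75.7% of the summed Pram level in WT. Per kilobase of exon it also had the highest WT level of any member, at 20.8 CPM per kb, against 8.85 for Xlr3a, 8.4 for Rhox1 and 3.28 for Pramel6. That order is not corrected for shared sequence. All 100-base windows of Pramef12 are found in no other gene, but only 30.9% of those of Xlr5a, 18.7% of Xlr5b and 33.6% of Rhox2a are.

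Pramel6 and Pramel7 are linked in mouse embryonic stem cells to LIF and STAT3 signalling and to low DNA methylation. Pramel6 had 0.285 and 0.0289 CPM in KO, 0 counts in D395A, and 7.10 and 6.58 CPM in WT. It fell by 5.41 ± 0.45 on the log2 scale in KO (adjusted p = 1.3e-07) and was at least 136-fold lower in D395A. Pramel7 had 0.228 and 0.0866 CPM in KO, 0 and 0.0834 CPM in D395A, and 1.84 and 2.92 CPM in WT. It fell by 3.88 ± 0.63 in KO (adjusted p = 6.7e-05) and was 46.7-fold lower in D395A (15.7 to 229). Both genes differ from every other gene in all of their 100-base windows, so their counts do not depend on a split between copies. Pramel6 was lower in D395A than in KO, at least 3.14-fold (adjusted p = 0.014). It lost that call with limma-voom (adjusted p = 0.0997) and in a fit of the 2 lines alone (adjusted p = 0.082). The call was also lost without KO replicate 1 and without either D395A library. Pramel7 was not called between the lines (3.14-fold lower in D395A, interval 0.829 to 17.5).

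Pramef17, 1 of the Pramef genes on chromosome 4, had 0.856 and 0.866 CPM in KO, 0.254 and 0.111 CPM in D395A, and 4.08 and 4.43 CPM in WT. It had log2 fold changes of -2.30 ± 0.32 in KO and -4.61 ± 0.41 in D395A, and the difference of D395A from KO was -2.31 ± 0.45 (adjusted p = 6.1e-04). Pramel3, which is X-linked, had 0.200 and 0.0866 CPM in KO, 0 counts in D395A, and 1.47 and 0.964 CPM in WT, a log2 fold change of -3.06 ± 0.71 in KO and a level at least 24.5-fold lower in D395A. Pramef25 was called in no comparison and had at most 0.465 CPM in any library. Prame, Pramef20, Pramef6, Pramef8, Pramel1, Pramel4 and Pramel5 had fewer than 10 counts. Pram1 only shares the prefix, since its product is an adaptor protein of blood cells. It had 0.999 and 0.635 CPM in KO, 1.23 and 1.31 CPM in D395A, and 1.74 and 2.84 CPM in WT, with a log2 fold change of -1.48 ± 0.39 in KO that was not called without WT replicate 2 (adjusted p = 0.091). Without Pram1, 30 of 37 tested members fell in KO and 29 in D395A.

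Between the mutant lines, 14 of the 38 tested members were lower in D395A than in KO (4 Xlr, 6 Magea and 4 Pram), 3 were higher (Xlr3a, Rhox13 and Rhox4e) and 21 were not called. Of all genes tested, 21.5% were lower and 23.3% higher. The median log2 fold change of the 38 was -0.53. With members at few counts set to their bound or ratio it was 0. Members at 3 or fewer counts in both lines were set to 0 there, so that median rests in part on set values. Without D395A replicate 2 the counts were 7 lower and 1 higher, with 2 lower in Xlr and 2 in Pram, and without KO replicate 1 there were 2 lower in Pram. Of the 14 lower calls, 6 held in all 4 fits that each left out 1 library of KO or D395A, and of the 3 higher calls 1 did. Against WT, 23 of 31 lower calls in KO and 22 of 29 in D395A held in all 4 such fits, and both calls of Pramef12 did.

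Most members are X-linked, and other X-linked genes had medians near 0. Among 632 other X-linked genes tested, 28.6% fell and 27.4% rose in KO, with a median log2 fold change of -0.01, and 27.8% fell and 38.6% rose in D395A, with a median of 0.14. Of 32 tested X-linked members, 27 fell in KO and 26 in D395A. Of the 6 autosomal ones, 4 fell in KO and 3 in D395A. The 8 tested members with every 100-base window of their own had 6 falls and 1 rise (Pramef12) in each comparison with WT.

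**Figure D4:**
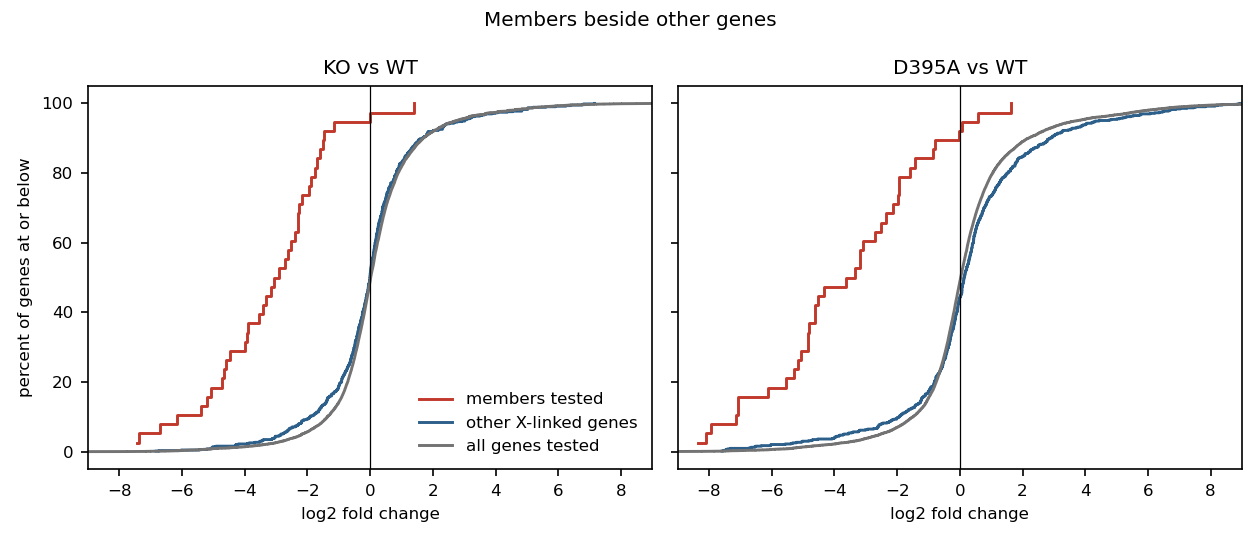
Cumulative share of genes against log2 fold change, in KO against WT and in D395A against WT, for the tested members, the other X-linked genes and all genes tested. The curves of the other X-linked genes and of all genes use fitted values and cross the middle near 0. Their medians are -0.01 and 0.02 for KO, with 0.14 and 0.03 for D395A. For the members' curve, those at 3 or fewer counts in a group are set to their bound or ratio. Its medians are -2.99 (KO) and -3.48 (D395A), where fitted values alone give -3.61 and -4.94.

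Genes that share the clusters moved unevenly. F8a, whose human homologue lies in an intron of the factor VIII gene, sits within the Xlr3 to Xlr5 interval. It had 5.22 and 6.41 CPM in KO, 12.7 and 13.0 CPM in D395A, and 5.03 and 4.85 CPM in WT, so it was not called in KO (0.23 ± 0.14, adjusted p = 0.16) and rose in D395A (1.38 ± 0.13, adjusted p = 2.8e-07) while the Xlr copies on both sides fell. Within 250 kb of the cluster, Zfp275 rose by 0.21 ± 0.07 in KO and 0.22 ± 0.07 in D395A, and Haus7 fell (-0.64 ± 0.08 in KO and -0.64 ± 0.09 in D395A). Pnma5 there fell with the Xlr genes, at 5.85 and 5.28 CPM in KO, 1.27 and 0.778 CPM in D395A, and 45.7 and 47.7 CPM in WT (-3.07 ± 0.11 in KO and -5.57 ± 0.15 in D395A). Gm9 beside the Rhox cluster had 0.542 and 0.780 CPM in KO, 0.169 and 0.389 CPM in D395A, and 8.82 and 8.23 CPM in WT (-3.68 ± 0.26 in KO and -4.82 ± 0.30 in D395A). These neighbours were chosen after their values were seen. Of 14 tested neighbours of the Xlr3 to Xlr5 interval, 3 fell and 3 rose in KO, and 3 fell and 6 rose in D395A. Of 11 around the Rhox cluster, 3 fell and 5 rose in KO, and 2 fell and 5 rose in D395A. Both tested neighbours of Pramel3 fell in KO and 1 of them, AV320801, fell in D395A, with 0.0856 and 0.289 CPM in KO, 0.0423 and 0 CPM in D395A, and 3.81 and 3.58 CPM in WT. Olfr153, 1 of the 2 tested neighbours of Pramel6 and Pramel7, fell in both lines, with 0.285 and 0.231 CPM in KO, 0 CPM in both D395A libraries, and 2.75 and 2.97 CPM in WT.

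RefSeq lists 22 further rows of the tables as members of these families under other symbols, of which 6 could be tested. The symbol 1700013H16Rik, which RefSeq gives as Xlr6, lies within 250 kb of Xlr, from 53742901 to 53757970 on the X chromosome. This gene had 1.17 and 1.13 CPM in KO, 0.0423 and 0.167 CPM in D395A, and 23.3 and 21.9 CPM in WT. It had log2 fold changes of -4.30 ± 0.16 in KO and -7.55 ± 0.24 in D395A. Gm13128, which RefSeq gives as Pramel30, had 1.80 and 2.17 CPM in KO, 0 counts in D395A, and 5.13 and 4.85 CPM in WT, a log2 fold change of -1.33 ± 0.25 in KO and a level at least 99.3-fold lower in D395A. Gm12794, given as Pramel19, had 0.114 and 0.462 CPM in KO, 0.930 and 1.56 CPM in D395A, and 0.319 and 0.248 CPM in WT, and rose by 2.13 ± 0.67 in D395A. Of the 6, 2 fell in KO, and 3 fell and 1 rose in D395A. Over all genes tested, 29.2% fell in KO, and 30.7% fell and 33.5% rose in D395A. B020004J07Rik (Pramel17) and Gm13119 (Pramel31) were called in neither line, and 3830403N18Rik (Xlrl) was called only in D395A, where it fell.

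Most genes of a list of other germline genes known to be silenced by DNA methylation fell. Of 29 tested, 23 fell and 2 rose in KO, and 22 fell and 4 rose in D395A, with medians of -1.55 and -1.72. Of all genes tested, 29.2% fell and 30.4% rose in KO, and 30.7% fell and 33.5% rose in D395A. The exceptions that rose were Dpep3 (3.41 ± 0.15 in KO and 0.69 ± 0.18 in D395A), Rpl10l (1.64 ± 0.07 in KO and 0.29 ± 0.07 in D395A) and, in D395A, Tdrd1 (1.92 ± 0.39) and Tdrkh (0.62 ± 0.19). Smc1b, the meiotic cohesin subunit, had 1.08 and 0.924 CPM in KO, 0.930 and 0.695 CPM in D395A, and 46.0 and 53.4 CPM in WT. Usp26, an X-linked deubiquitinase gene of the testis, had 0.371 and 0.664 CPM in KO, 0.169 and 0.445 CPM in D395A, and 59.4 and 58.9 CPM in WT. Hormad2 and Asz1, a gene of the meiotic chromosome axis and a gene of the piRNA pathway, fell to 2.15 ± 0.505 and 0.115 ± 0.0416 CPM in KO and to 0.729 ± 0.285 and 0.253 ± 0.121 CPM in D395A, against 29.2 ± 0.942 and 3.74 ± 0.357 CPM in WT. MAGE genes outside Magea moved both ways. Of 11 tested, 1 rose and 2 fell in KO, and 5 rose and 2 fell in D395A. Ndn, the necdin gene of the Prader-Willi region, rose by 1.24 ± 0.13 in KO and 2.39 ± 0.12 in D395A.

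Genes for repressors of the germline programme and for DNA methylation moved in both directions, with more falls than rises. Of 39, 13 rose and 20 fell in KO, and 12 rose and 20 fell in D395A, with medians of -0.16 and -0.19. Over all genes tested, 30.4% rose and 29.2% fell in KO, and 33.5% rose and 30.7% fell in D395A. Pcgf6, a subunit of the Polycomb complex named above, fell in both lines (-0.76 ± 0.07 in KO and -0.72 ± 0.07 in D395A). Uhrf1, the target of PRAMEL7, had 593 and 597 CPM in KO, 436 and 471 CPM in D395A, and 719 and 686 CPM in WT, lower in both lines. Dnmt3a and Dnmt3b, which place new methylation, rose in D395A by 0.97 ± 0.07 and 0.83 ± 0.08. In KO, Dnmt3a rose by 0.29 ± 0.07 and Dnmt3b was not called (0.16 ± 0.08). Dnmt1 fell in both lines (-0.54 ± 0.07 in KO and -0.21 ± 0.07 in D395A), and so did Hells (-1.03 ± 0.07 in each). Dnmt3l, their cofactor, fell in both (-0.78 ± 0.13 in KO and -2.7 ± 0.16 in D395A). Dppa3, which protects against methylation in the early embryo, had 2.54 and 2.66 CPM in KO, 83.0 and 69.1 CPM in D395A, and 25.1 and 27.6 CPM in WT, so it was lower in KO and higher in D395A. Tet2, a demethylation enzyme, had 499 ± 27.5 CPM in KO and 85.7 ± 8.13 CPM in D395A, against 363 ± 10.4 CPM in WT. Suv39h1, a histone H3 lysine 9 methyltransferase, rose by 0.62 ± 0.07 in KO and 1.44 ± 0.07 in D395A. Pcgf6, Uhrf1, Dnmt3a, Dnmt3b, Dnmt1 and Hells were picked from the list after their values were seen.

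Of 14 genes of LIF signalling and the naive state, 5 rose and 4 fell in KO, and 4 rose and 9 fell in D395A. For this and the marker counts below, 30.4% of all genes tested rose and 29.2% fell in KO, and 33.5% rose and 30.7% fell in D395A. Tbx3, a naive state factor, had 413 and 381 CPM in KO, 17.6 and 19.2 CPM in D395A, and 283 and 281 CPM in WT. Klf5 fell in both lines (-1.22 ± 0.08 in KO and -1.7 ± 0.08 in D395A), as did Pim1 (-0.71 ± 0.06 and -1.50 ± 0.07). Gbx2 went opposite ways, falling in KO (-1.48 ± 0.11) and rising in D395A (2.18 ± 0.09). Markers of other cell states also differed between groups. Of 7 tested germ cell markers (Prm1 and Prm2 at 0 throughout), 6 fell in KO, and 5 fell and 1 rose in D395A, with a sum of 62.2 to 62.5 CPM in KO, 225 to 262 CPM in D395A and 312 to 336 CPM in WT. Ddx4, Sycp3, Dazl and Mael among them were already counted in the list of other germline genes above. Stra8, a gene induced as germ cells enter meiosis, was the marker that rose in D395A, with 12.6 and 13.8 CPM in KO, 198 and 163 CPM in D395A, and 25.2 and 24.9 CPM in WT. Without Stra8 the sum was 48.4 to 49.8 CPM in KO, 62.4 to 64.3 CPM in D395A and 287 to 311 CPM in WT. Of 7 tested markers of 2-cell-like cells (Tcstv1 at 0), 4 rose in D395A, with a sum of 2.60 to 3.70 CPM in KO, 37.2 to 42.6 CPM in D395A and 3.76 to 4.19 CPM in WT. Of 8 tested trophoblast markers (Tpbpa at 0), 1 rose and 1 fell in KO, and 4 rose and 1 fell in D395A, with a sum of 55.5 to 56.5 CPM in KO, 68.9 to 71.5 CPM in D395A and 63.9 to 65.0 CPM in WT. Of 8 extraembryonic endoderm markers, 3 rose and 3 fell in each line, and they summed to 158 to 160 CPM in KO, 73.9 to 81.7 CPM in D395A and 218 to 223 CPM in WT. Lama1, a laminin gene, made up most of that sum in KO and WT. Without it the markers summed to 27.4 to 33.1 CPM in KO, 45.4 to 48.3 CPM in D395A and 13.8 to 14.1 CPM in WT. Dab2, Foxa2 and Cubn were higher in both lines. Gata4 (-1.40 ± 0.23 in KO and -2.05 ± 0.25 in D395A), Gata6 (-1.69 ± 0.37 and -1.15 ± 0.36) and Lama1 were lower in both, and Sox17 and Pdgfra were called in neither. The 5 tested fibroblast markers summed to at most 8.43 CPM in any library (3 rose and 1 fell in KO, 2 rose and 2 fell in D395A). The part of these shifts in the levels of the Xlr, Magea, Rhox and Pram genes was not tested.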

How the data were processed

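RNA had been extracted from E14TG2a cells, depleted of ribosomal RNA and turned into directional libraries, per the labels' protocols. Per the submitters' processing notes, Trimmomatic 0.36, STAR 2.7, HTSeq 0.11.2 and the mm10 build were used; which strand setting and annotation were used is not given in the sources used here. The authors deposited raw counts per gene symbol, 1 table per library. Summary lines of HTSeq (29.1% to 44.2% of each total) were left out. Reads aligned to several places made up 5.34% to 6.42%, so copies are counted from the reads that HTSeq could place.

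Counts were fitted with edgeR 4.0.16 in R 4.3.3 (TMM factors, quasi-likelihood fit and F test, all 6 libraries in 1 model without covariates, 3 residual degrees of freedom, BCV 6.14%). Genes with at least 10 counts over the 6 libraries were tested and p-values were adjusted by Benjamini-Hochberg over all of them, with 0.05 as threshold. SE is the log2 fold change divided by the root of F. For a group at 0 counts, the fold is a bound computed against 3 counts over that group. With 1 to 3 counts it is a ratio of counts with an exact 95% interval. Intervals and floors cover counting error only. KO and D395A share the WT libraries.

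Members, gene lists and tests were chosen with earlier results of these data known. Values per library are given for members that average 1 CPM or more in a group and for the largest called rise and fall per family. From each list at most 4 called genes with at least 2 CPM were picked by size of change, and some of these are given. A list of other multicopy X-linked genes was dropped because its prefixes caught unrelated genes, and Ndnf was left out of the other MAGE genes for the same reason. Symbols were placed on the genome with RefSeq GRCm38.p6, and transcript windows came from GENCODE M21. No libraries were duplicates of each other: chi-square over degrees of freedom was 6.48 between the KO libraries, 11.1 in D395A and 3.19 in WT. Alternatives were other scaling, tests, filters, libraries and a replicate block.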

Additional observations from a re-analysis of the deposited data

How the results depend on the processing

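Of 1336 results for the 38 tested members under alternatives (other size factors, DESeq2, limma-voom, a robust fit, other filters, only the compared groups, a replicate block, 1 library left out), 1230 kept direction and call, 83 lost and 23 gained the call, and 0 with a call changed sign. For the 22 members that average 1 CPM or more in a group, 750 of 789 were kept. Lower calls numbered 25 to 33 in KO and 24 to 32 in D395A. The members higher in D395A than in WT were 2 with limma-voom and 0 at 2-fold or more. In D395A against KO, limma-voom called 8 members lower, and a fit of those groups alone called 7 lower and 1 higher. Leaving out 1 library gave 7 to 11 lower and 1 to 3 higher there, with 7 and 1 without D395A replicate 2. Some members fell under the minimum count then, so fewer were tested. Otherwise the cause was not tested. The replicate numbers do not pair the samples (correlations of deviations 0.134, -0.03 and -0.02 over 12431 genes). With the replicate block, 30 members were lower and 1 higher in KO, 28 and 1 in D395A, and 13 and 3 in D395A against KO. Depth limits members with few counts: a floor of 3 counts per group equals 0.0431 CPM in KO, 0.0503 CPM in D395A and 0.0389 CPM in WT.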
